A study of Mus musculus with 8 samples.

Results

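The MHC class II pathway was followed through 10 genes on 8 microarrays of the mouse thymic epithelial line TEC71. The genes were H2-Aa, H2-Ab1, H2-Eb1, H2-DMa, H2-DMb1, Cd74, Ciita, Ctsh, Ctss and Ctsl. They were chosen by name for their place in the pathway, and all their probes were kept, 16 probes of the 56605 on the array and 10 genes of the 22911 with a symbol. H2-Ab1 had 4 probes, Ctsh 3 and Ciita 2, and each other gene had 1.

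TEC71 is an immortalized line of medullary thymic epithelial origin, per the labels, grown as a monolayer in RPMI-1640 with serum. Knockin#1 (3 arrays) and knockin#3 (2 arrays) were clones #1 and #3 of TEC71 carrying the T1211A mutation of Gtf2i, the gene of the transcription factor TFII-I. The control (3 arrays) was TEC71 transfected with Cas9 nickase and a single guide RNA. Each knock-in group is therefore 1 clone of a cultured line. No label says that arrays of a group came from separate cultures, so p-values measure the spread between these arrays, which may be technical.

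Class II molecules present peptides from the endosomal system to CD4+ T cells. Their alpha and beta chains assemble with the invariant chain, Cd74, which is then cut away by cysteine cathepsins, and the DM heterodimer exchanges its last fragment for other peptides. Transcription of this set depends on the coactivator Ciita, which docks on factors bound at the X and Y boxes of the promoters. In the thymus, class II on epithelial cells displays self peptides to developing CD4+ T cells, and cathepsin L is known for invariant chain processing in cortical epithelium of the mouse, where cathepsin S does this in bone marrow-derived presenting cells.

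The promoters of the DM beta genes and of the classical chains are shown because H2-DMb1 was called higher in both clones, while the genes whose promoters hold the same or related boxes were at background. Each line holds the 160 bases before the RefSeq gene start in GRCm38.p6, 5′ to 3′ on the strand of the gene. Capitals mark the Y box core TGATTGG, the X box core GATGATG and the palindrome TGACGTCA, a full cAMP response element in the place of the X2 box. The windows are chr17:34153031-34153190 on the plus strand for H2-DMb1, chr17:34145089-34145248 on the plus strand for H2-DMb2, chr17:34287824-34287983 on the minus strand for H2-Aa and chr17:34305707-34305866 on the plus strand for H2-Eb1.
H2-DMb1: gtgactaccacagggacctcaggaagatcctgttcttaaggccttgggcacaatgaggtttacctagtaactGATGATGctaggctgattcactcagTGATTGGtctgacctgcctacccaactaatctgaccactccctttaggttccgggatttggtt
H2-DMb2: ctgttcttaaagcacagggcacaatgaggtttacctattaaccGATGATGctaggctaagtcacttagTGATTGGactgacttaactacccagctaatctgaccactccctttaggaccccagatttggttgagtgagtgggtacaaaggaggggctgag
H2-Aa: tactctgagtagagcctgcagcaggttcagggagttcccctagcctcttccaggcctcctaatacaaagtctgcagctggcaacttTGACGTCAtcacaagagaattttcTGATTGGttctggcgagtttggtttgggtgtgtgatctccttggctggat
H2-Eb1: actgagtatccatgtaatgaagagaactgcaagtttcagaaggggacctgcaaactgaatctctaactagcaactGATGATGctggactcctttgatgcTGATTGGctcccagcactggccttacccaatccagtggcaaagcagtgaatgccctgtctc

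The motifs were searched on both strands, after the sequences had been read, in windows of 250 bases before and 50 bases after the start. Such a window was found for 6 of the members (H2-Aa, H2-Eb1, H2-DMa, H2-DMb1, Ctss and Ctsl). In H2-DMb1 the X core began 88 bases and the Y core 63 bases before the start, and in H2-DMb2, the neighbouring copy of the gene, they began at 117 and 92 bases. Both pairs were 25 bases apart, start to start, and those of H2-Eb1 were 24 bases apart, at 85 and 61 bases. H2-Aa held the Y core at 50 bases and the palindrome at 74 bases. No match to these letters was found in the windows of H2-DMa, Ctss and Ctsl. Of all 32851 windows, 7.82% held the Y core, 3.48% the X core, 1.79% the palindrome and 0.237% (78 windows) both the X and the Y core.

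**Figure D1:**
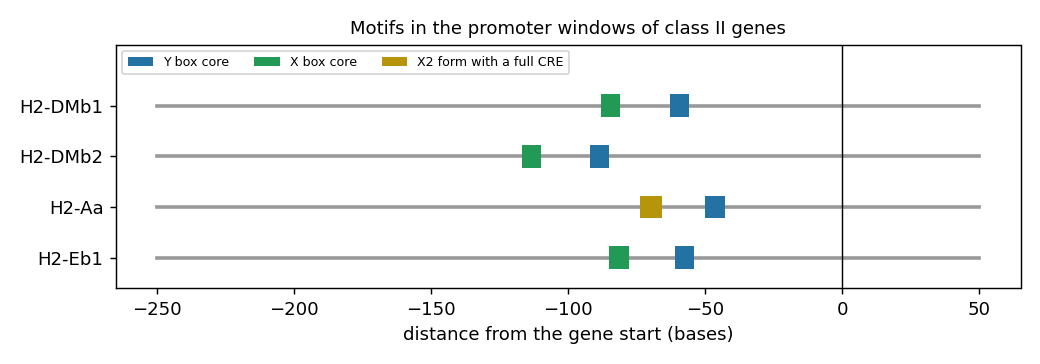
Position of the motifs in the promoter windows of 4 class II genes, in bases from the gene start (0 on the x axis, negative values before it). Boxes mark the Y box core, the X box core and the palindrome. H2-DMb1, H2-DMb2 and H2-Eb1 hold an X and a Y core 24 or 25 bases apart, and H2-Aa holds the palindrome and the Y core.

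Signals are background-subtracted fluorescence intensities, given first as measured on each array. Levels are log2 signals minus the 75th percentile of the array, which was 268 to 377 signal units. On each array 55.3% to 59.3% of probes exceeded background well, and no spot was saturated. All arrays were on 1 slide: by the array positions in the labels, the controls and replicate 1 of knockin#1 lay in its first row and the other knock-in arrays in the second. The brightest spike-in control read 3238 on replicate 1 of knockin#1 and 18804 to 34228 on the other arrays. The spike-ins were not used for scaling. Gtf2i, the edited gene, had a level of 3.96 in knockin#1, 3.82 in knockin#3 and 4.41 in the control. It differed by -0.46 in knockin#1 (limma adjusted p = 0.00754) and by -0.59 in knockin#3 (limma adjusted p = 0.00421). Neither call held when the slide row was a block (adjusted p = 0.0789 and 0.125), and whether the probe overlaps the point mutation was not examined. Epithelial keratins (Krt5, Krt14, Krt8 and Krt18) and Epcam were well above background on every array. Aire, a gene of mature medullary epithelium, was so on 2 of 3 knockin#1 arrays, 0 of 2 knockin#3 arrays and 1 of 3 control arrays. Of 18 thymic epithelial markers read, 13 were well above background on all 8 arrays, and Psmb11, Cd40, Fezf2 and Pax1 on none. Foxn1, among the 13, was dim, with levels of -3.67 in knockin#1, -3.74 in knockin#3 and -3.35 in the control.

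Cathepsin H and the DM beta chain were far higher in both knock-in clones, and the invariant chain was modestly higher. The classical class II chains and Ciita stayed at or near background in all groups, and neither DM alpha nor cathepsin L passed the test. Testing required a probe to be well above background throughout at least 1 group of arrays, and 6 members qualified (H2-Ab1, H2-DMa, H2-DMb1, Cd74, Ctsh and Ctsl). H2-Ab1 met this only through the knock-in groups. Against the control, 3 members were called in knockin#1 and 3 in knockin#3, in each clone Ctsh, H2-DMb1 and Cd74, all higher. These comparisons share the 3 control arrays. Of all 25352 features tested, 31.1% were called in knockin#1 (14.7% higher, 16.5% lower) and 30.2% in knockin#3 (13.3% higher, 17% lower), and in both clones 11.3% were called higher and 12.2% lower. Between knockin#3 and knockin#1 limma called 0 members (1, Cd74, at an unadjusted p under 0.05), beside 0.0749% of all features (19). The median difference over all features was -0.05 in knockin#1 and -0.04 in knockin#3. Because bulk RNA was measured, more cells with a transcript and more transcript per cell cannot be told apart.

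**Figure D2:**
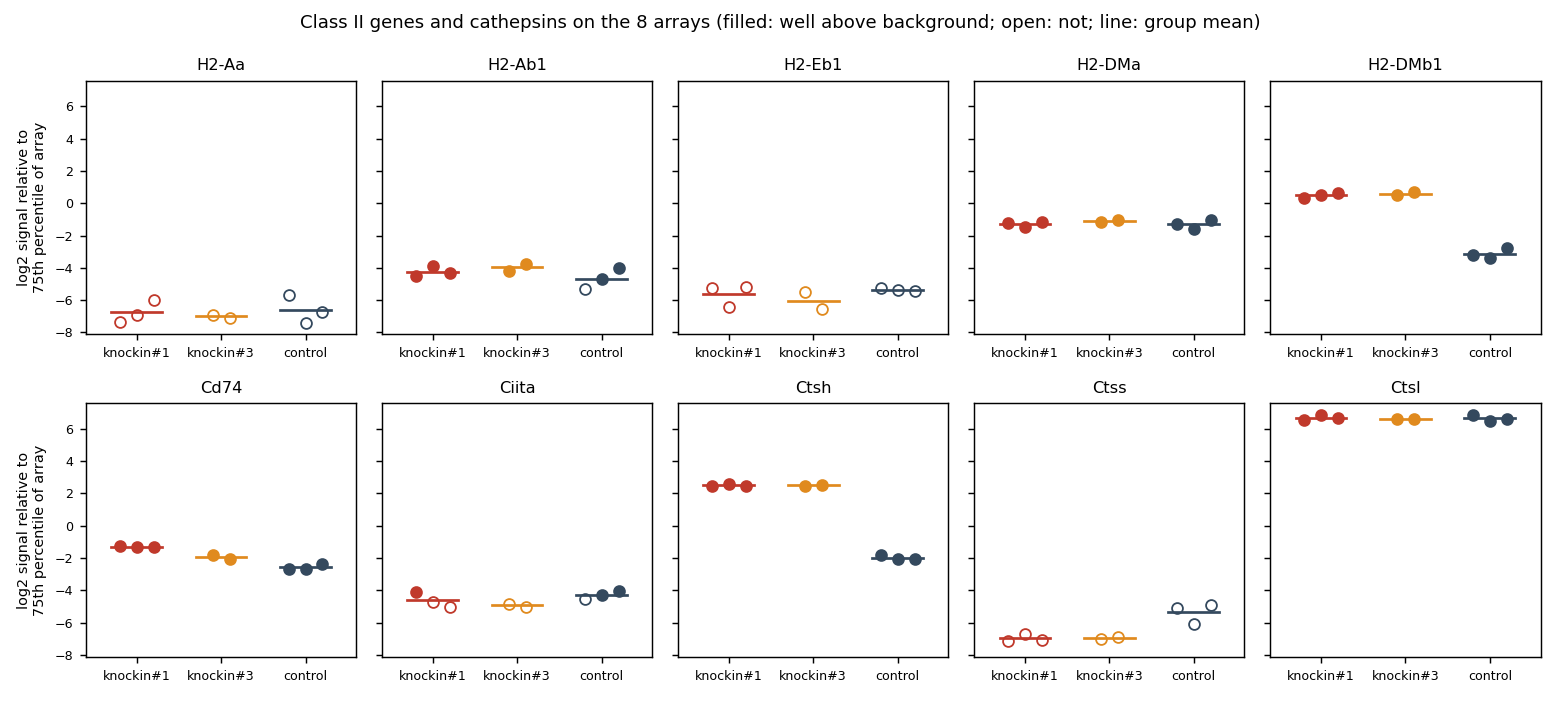
Level of each of the 10 members on each array, as log2 signal relative to the array's 75th percentile, for knockin#1, knockin#3 and the control. Filled points were well above background, open points were not, and lines are group means. Ctsh, H2-DMb1 and Cd74 lie higher on every knock-in array than on any control array.

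The classical chains were hardly detected. H2-Aa, the alpha chain of the I-A molecule, was not well above background on any array, with signals of 1.95 to 5.77 in knockin#1, 2.06 and 2.66 in knockin#3 and 2.22 to 5.22 in the control. H2-Eb1, the beta chain of I-E, likewise stayed at background, with 3.30 to 10.0 in knockin#1, 2.99 and 7.02 in knockin#3 and 6.58 to 8.94 in the control. The signals of the groups overlapped for both genes, no test was made, and the arrays set only an upper bound on these transcripts. As scaled levels, H2-Eb1 in knockin#3 (-5.51 and -6.57) lay below the control (-5.22, -5.40 and -5.44) without overlap, but every value was at background.

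H2-Ab1, the beta chain of I-A, was near the limit of detection. Its brightest probe read 14.2, 18.6 and 18.1 in knockin#1, 17.6 and 21.2 in knockin#3, and 6.88, 14.5 and 17.8 in the control, where the lowest array was not well above background. The groups overlapped. The level differed by 0.42 (SE 0.31, limma adjusted p = 0.354) in knockin#1 and by 0.70 (SE 0.34, 95% interval -0.09 to 1.49, limma adjusted p = 0.164) in knockin#3. That second difference was called without control replicate 3 (1.03, adjusted p = 0.0329) and with the mean of all 4 probes (0.68, adjusted p = 0.0473), a mean that takes in mostly background readings. Since H2-Ab1 entered the test through the knock-in groups, these values are given as a description. The other 3 H2-Ab1 probes were not well above background, except 1 of them on 1 knockin#3 array. One of these dim probes read 4.80 to 9.55 in knockin#1, 7.45 and 8.53 in knockin#3 and 2.65 to 2.97 in the control, so its groups did not overlap, but every value was at background and no fold is given.

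H2-DMb1, the beta chain of the peptide exchanger DM, was the member of the class II complex with the largest difference. Its signal was 406, 401 and 561 in knockin#1, 451 and 464 in knockin#3, and 29.7, 36.0 and 42.1 in the control. Every knock-in array lay above every control array. The level averaged 0.50 ± 0.14 in knockin#1 (SD, n = 3), 0.60 ± 0.15 in knockin#3 (SD, n = 2) and -3.11 ± 0.32 in the control (SD, n = 3). This was a log2 difference of 3.61 (12.2-fold, SE 0.17, limma adjusted p = 1.85e-06) in knockin#1 and of 3.71 (13.1-fold, SE 0.19, limma adjusted p = 3.97e-06) in knockin#3. Ranked from the highest difference down, H2-DMb1 stood 82nd of 25352 features in knockin#1 and 91st in knockin#3. The clones differed by 0.10 (knockin#3 minus knockin#1, 95% interval -0.33 to 0.54, limma adjusted p = 0.87). With normexp background correction, whose offset compresses low signals, the differences were 2.39 in knockin#1 and 2.38 in knockin#3, both still called.

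The H2-DMb1 probe may not separate the gene from its near copy H2-DMb2, since probe sequences were not used here. The probe annotated to H2-DMb2 was not well above background on any array, with mean levels of -7.03 in knockin#1, -6.97 in knockin#3 and -7.03 in the control. The promoters of these copies, printed above, both carry the X and Y cores.

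H2-DMa, the alpha chain that pairs with the DM beta chain, was well above background on all arrays but was not called. Its signal was 139, 102 and 161 in knockin#1, 146 and 138 in knockin#3, and 110.1, 126 and 137 in the control, and the knock-in and control arrays overlapped. The level differed by 0.03 in knockin#1 (95% interval -0.31 to 0.38, limma adjusted p = 0.901) and by 0.22 in knockin#3 (95% interval -0.16 to 0.61, limma adjusted p = 0.366). The upper bounds of both intervals lie below the lower bounds for H2-DMb1, 3.22 in knockin#1 and 3.28 in knockin#3.

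Cd74, the invariant chain that guides class II to endosomes, was higher in both clones, with the larger difference in knockin#1. Its signal was 133, 109.8 and 147 in knockin#1, 91.3 and 67.1 in knockin#3, and 42.0, 57.8 and 55.0 in the control. The 3 groups did not overlap, with knockin#3 between knockin#1 and the control. The level differed by 1.28 in knockin#1 (2.43-fold, SE 0.13, limma adjusted p = 0.000149). In knockin#3 it differed by 0.64 (1.56-fold, SE 0.14, limma adjusted p = 0.0106). That call was lost with normexp correction (0.35, adjusted p = 0.0548), with the slide row as a block (0.72, adjusted p = 0.14) and without knockin#3 replicate 1 (0.51, adjusted p = 0.0721). Knockin#3 minus knockin#1 was -0.64 (95% interval -0.97 to -0.31, unadjusted p = 0.00189 in limma), which did not pass over all features (limma adjusted p = 0.204).

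**Figure D3:**
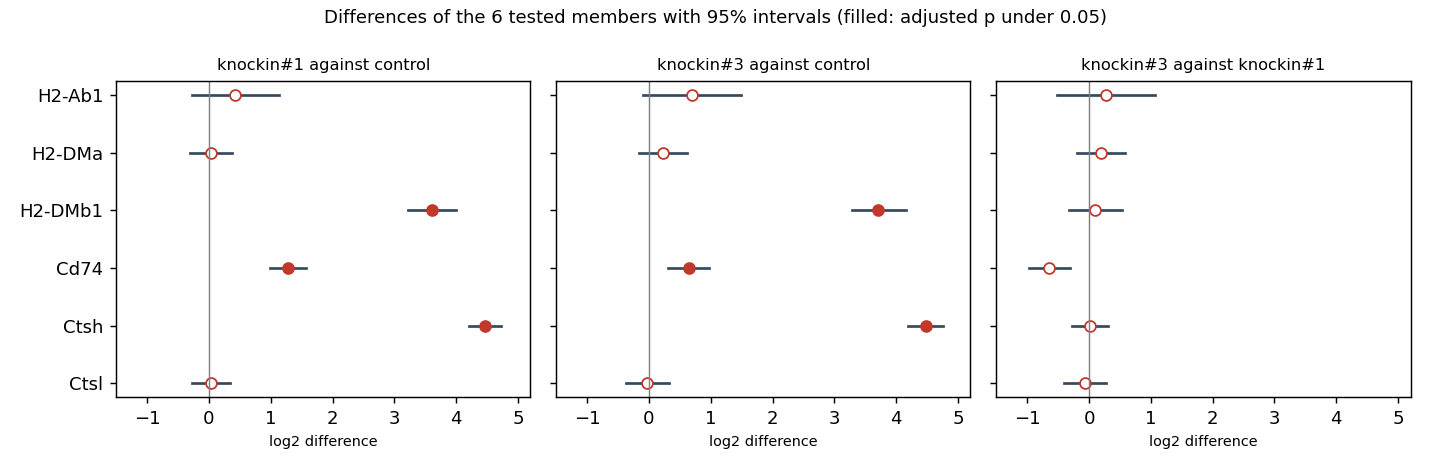
Log2 difference of each of the 6 tested members (points) with its 95% interval (bars), for knockin#1 against control, knockin#3 against control and knockin#3 against knockin#1. Filled points had an adjusted p under 0.05. Ctsh and H2-DMb1 lie at 3.61 to 4.48 in both clones, and no point is filled between the clones.

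Ciita, the class II coactivator, was at the edge of detection. Its brighter probe read 18.4, 10.8 and 11.2 in knockin#1, 11.2 and 8.76 in knockin#3, and 11.5, 19.4 and 17.3 in the control. It was well above background on 1 of 3, 0 of 2 and 2 of 3 of these arrays, so it was not tested. The second Ciita probe read 13.2, 8.68 and 28.9 in knockin#1, 12.9 and 9.04 in knockin#3, and 5.38, 12.8 and 6.44 in the control. On this probe the mean level was higher in knockin#1 (-4.42) and knockin#3 (-4.80) than in the control (-5.33), opposite to the first probe (-4.61, -4.93 and -4.29). All groups overlapped on the second probe. On the first, knockin#3 lay below the control without overlap, with readings at or near background. No direction for Ciita is therefore given.

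Ctsh, an endosomal cysteine protease that trims peptides mainly as an aminopeptidase, had the largest difference among the members. Its brightest probe read 1736, 1674 and 1987 in knockin#1, 1769 and 1641 in knockin#3, and 76.7, 90.5 and 68.2 in the control. The knock-in arrays lay within a narrow band far above the control arrays. The level averaged 2.49 ± 0.08 in knockin#1 (SD, n = 3), 2.50 ± 0.05 in knockin#3 (SD, n = 2) and -1.98 ± 0.15 in the control (SD, n = 3). The log2 difference was 4.47 in knockin#1 (22.1-fold, SE 0.11, limma adjusted p = 1.05e-07) and 4.48 in knockin#3 (22.3-fold, SE 0.13, limma adjusted p = 2.79e-07). Ctsh ranked 42nd of 25352 features in knockin#1 and 44th in knockin#3, counted from the highest difference. The clones differed by 0.01 (knockin#3 minus knockin#1, 95% interval -0.28 to 0.30, limma adjusted p = 0.99).

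The other Ctsh probes also read higher on the knock-in arrays. The second probe read 294, 253 and 361 in knockin#1, 302 and 245 in knockin#3, and 11.8, 11.1 and 12.9 in the control. The third read 375, 317 and 494 in knockin#1, 408 and 242 in knockin#3, and 9.11, 18.7 and 20.3 in the control. On both, no knock-in array came near a control array, and only 1 of 3 and 2 of 3 control arrays were well above background. With every probe fitted on its own, the second differed by 4.60 in knockin#1 and 4.55 in knockin#3 and the third by 4.63 and 4.41 (limma adjusted p at most 1.43e-05 among them). These fitted sizes rest partly on control readings at background, so the size of the Ctsh difference is taken from the brightest probe alone.

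**Figure D4:**
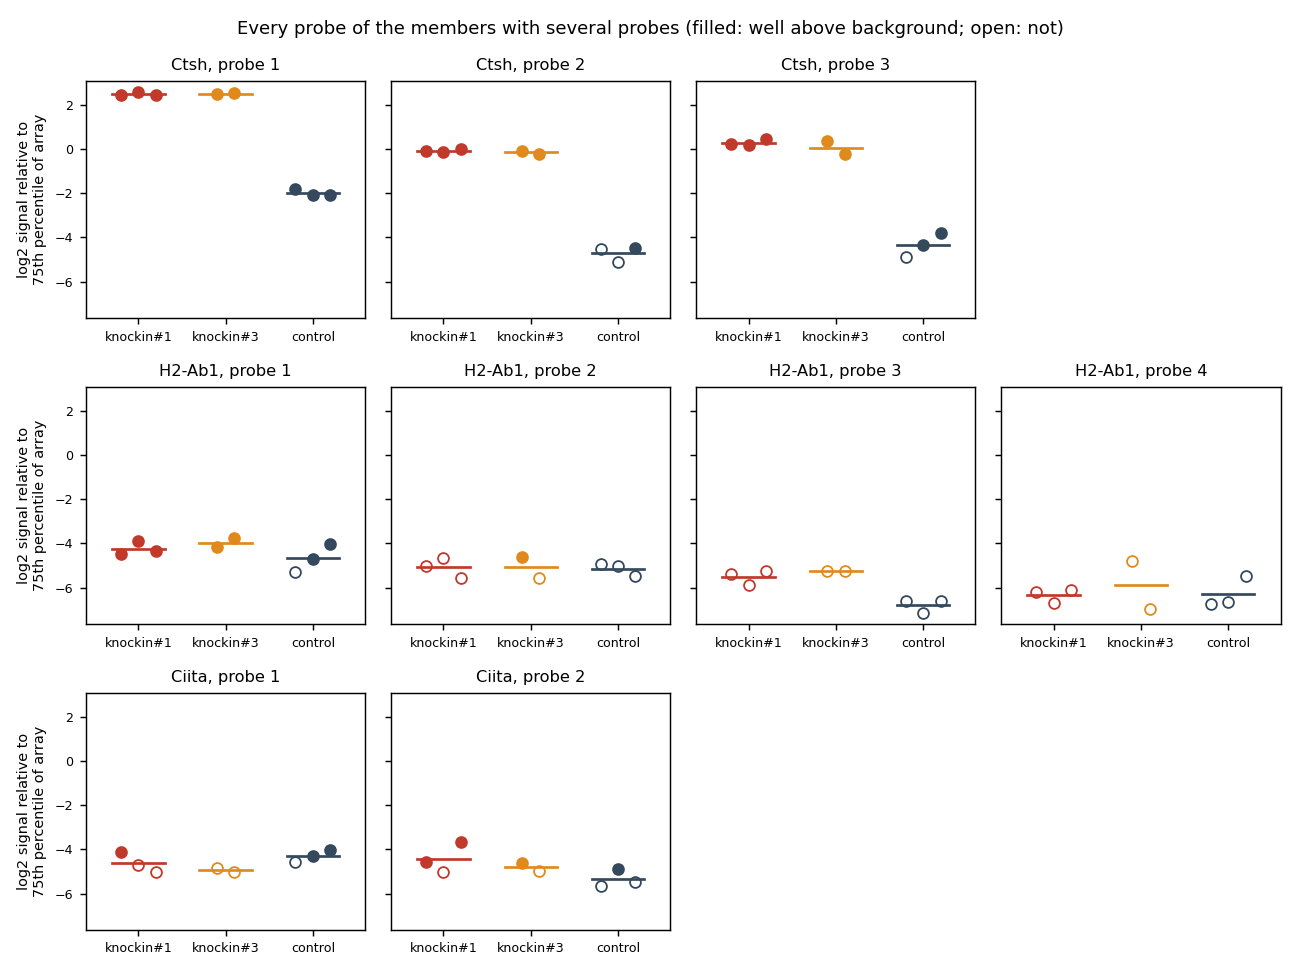
Level of every probe of Ctsh, H2-Ab1 and Ciita on each array, as log2 signal relative to the array's 75th percentile, for knockin#1, knockin#3 and the control. Filled points were well above background, open points were not, and lines are group means. All 3 Ctsh probes separate the knock-in arrays from the control arrays, while the group means of the Ciita probes run in opposite directions.

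Ctsl, the cathepsin of invariant chain processing in cortical thymic epithelium of the mouse, had a bright signal that was not called. It read 29193, 32079 and 37207 in knockin#1, 31282 and 28022 in knockin#3, and 30912, 33441 and 27731 in the control, each the mean of repeated spots of 1 probe. The groups overlapped, and the level differed by 0.04 in knockin#1 (95% interval -0.27 to 0.34, limma adjusted p = 0.874) and by -0.03 in knockin#3 (95% interval -0.37 to 0.32, limma adjusted p = 0.921).

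Ctss, the cathepsin that completes invariant chain removal in dendritic cells and B cells, was not well above background on any array. Its signal was 2.22, 2.71 and 2.70 in knockin#1, 2.53 and 2.39 in knockin#3, and 7.81, 5.64 and 9.31 in the control. The control values were the higher ones, without overlap, but all lie at background, so no fold is given. Only when no detection filter was used did Ctss pass (-1.61 in knockin#1, adjusted p = 0.0126, and -1.57 in knockin#3, adjusted p = 0.0238), which compares background readings.

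All controls lay in the first slide row, so knockin#3 and the control shared no row. The main fit holds no row term, so in it their difference cannot be told apart from a row difference. With the row as a block, their contrast leans on knockin#1 to bridge rows. Ctsh and H2-DMb1 were also called with the row as a block. Ctsh then differed by 4.43 (limma adjusted p = 1.21e-05) in knockin#1 and by 4.41 (limma adjusted p = 8.44e-05) in knockin#3. H2-DMb1 differed by 3.46 (limma adjusted p = 0.000142) in knockin#1 and by 3.49 (limma adjusted p = 0.000922) in knockin#3. Cd74 in knockin#1 differed by 1.33 (limma adjusted p = 0.00385) with this block. Within the second row, knockin#3 minus knockin#1 for Cd74 was -0.62 (limma adjusted p = 0.435). The block takes the knockin#1 value from the single knockin#1 array of the first row, the one with the low spike-in. Without that array, the knockin#1 differences were 4.49 for Ctsh, 3.68 for H2-DMb1 and 1.26 for Cd74, all called.

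The 4 genes nearest to Ctsh over the 8 arrays were found by Euclidean distance of their levels after each gene's control mean was subtracted, among 13566 genes above background on all arrays. Nearest was Cpm, a membrane carboxypeptidase, at a distance of 0.25 log2 units and with differences of 4.38 in knockin#1 and 4.42 in knockin#3. Adgrg6, an adhesion G protein-coupled receptor, lay at 0.44 (differences of 4.67 and 4.38), Fhl1, a LIM domain protein, at 0.52 (4.47 and 4.40), and Cgref1 at 0.57 (4.66 and 4.63). The distance ranks likeness of pattern on these arrays and carries no test.

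Around the members, 5 lists of genes of the same pathway were read in the same fit. Of 9 other class II genes, 8 had a probe and 4 were tested, 2 of them higher in both clones and none lower (median difference 0.46 in knockin#1 and 0.40 in knockin#3). Over all features, 11.3% were called higher and 12.2% lower in both clones. Ifi30, the thiol reductase of the class II pathway, differed by 0.88 in knockin#1 (limma adjusted p = 0.00235) and by 0.55 in knockin#3 (limma adjusted p = 0.0341). Prss16, the thymus-specific serine protease, differed by 0.71 (limma adjusted p = 0.00799) and 0.57 (limma adjusted p = 0.0342). With the row as a block only the Ifi30 call in knockin#1 held (adjusted p = 0.0474), while Ifi30 in knockin#3 (0.469) and Prss16 in both clones (0.0633 and 0.262) did not pass. H2-Eb2, H2-DMb2, H2-Oa and H2-Ob were not well above background on any array.

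The factors that bind class II promoters or induce Ciita formed another list. Of 21 genes, 19 were tested, with 3 higher and 2 lower in knockin#1 and 1 higher and 2 lower in knockin#3. In both clones 1 was higher and 1 lower, beside 11.3% and 12.2% of all features. The median difference was -0.02 in knockin#1 and 0.03 in knockin#3. Rfxap, a subunit of the X box factor RFX, differed by 0.43 in knockin#1 (limma adjusted p = 0.0179) and by 0.53 in knockin#3 (limma adjusted p = 0.0123). Ifngr1, a chain of the interferon gamma receptor, differed by -0.64 in knockin#1 (limma adjusted p = 0.00766) and by -0.65 in knockin#3 (limma adjusted p = 0.0123). Neither gene was called in either clone with the row as a block, where the adjusted p was 0.163 and 0.259 for Rfxap and 0.0828 and 0.222 for Ifngr1.

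Several other lysosomal proteases were also higher. Of 12 other cathepsins and legumain, 8 were tested, and 7 were higher and 1 lower in knockin#1, 6 higher and 1 lower in knockin#3, with a median difference of 1.11 and 0.89. Of all features, 14.7% were higher and 16.5% lower in knockin#1, and 13.3% and 17% in knockin#3. With the row as a block, 5 of the list's higher calls and the lower one held in knockin#1. In knockin#3, 3 higher calls and 0 lower ones held, and Ctsd (adjusted p = 0.21), Lgmn (0.174), Ctsz (0.332) and Ctsw (0.0522) were lost. The counts and medians of this list include Ctsc. Ctsc, the dipeptidyl peptidase that activates granule proteases, was well above background on every knock-in array and on no control array, so it entered the test only through the knock-in groups. Its level was at least 9.85-fold higher in knockin#1 and at least 11.3-fold higher in knockin#3. Each limit sets the group mean against the lowest signal well above background on each control array, or the probe's own where higher. No p-value is given for Ctsc, because its test set detected signals against background readings. With normexp correction, whose offset compresses low signals, its fitted differences were 1.46 in knockin#1 and 1.48 in knockin#3. Ctsa, a lysosomal carboxypeptidase, differed by 1.65 in knockin#1 and 1.23 in knockin#3, and Ctsf by 1.30 and 1.08. Ctsw, known from cytotoxic lymphocytes, was the lower one, at -1.45 and -1.40. Ctsa and Ctsf were called in both clones with the block too (limma adjusted p at most 0.028). Of the 68 tested genes of the 5 lists, limma called 0 between the clones (7 at an unadjusted p under 0.05).

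Cystatins and other inhibitors of cathepsins were read in the same way. Of 13 genes, 9 were tested, with 1 higher and 2 lower in both clones, beside 11.3% and 12.2% of all features. The median difference was -0.04 in knockin#1 and 0.06 in knockin#3. Serpinb1a, an intracellular serpin that blocks granule serine proteases including cathepsin G, differed by -4.04 in knockin#1 (limma adjusted p = 5.15e-07) and by -3.84 in knockin#3 (limma adjusted p = 1.74e-06). Cathepsin G itself (Ctsg) was well above background on 1 of 3 knockin#1, 1 of 2 knockin#3 and 0 of 3 control arrays and was not tested. Cst6, a secreted cystatin that inhibits legumain and cathepsin L, differed by 1.31 (limma adjusted p = 4.34e-05) and 1.76 (limma adjusted p = 1.86e-05). Ctla2a, a mouse inhibitor related to cathepsin propeptides, differed by -0.99 (limma adjusted p = 0.000981) and -0.64 (limma adjusted p = 0.016), and blocking by row ended its knockin#3 call (adjusted p = 0.109).

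Genes of lysosomal sorting and biogenesis were higher more often in knockin#1 than lower. Of 30 genes, 29 had a probe and 28 were tested, with 15 higher and 2 lower in knockin#1 and 9 higher and 2 lower in knockin#3 (median difference 0.41 and 0.15). Of all features, 14.7% were higher and 16.5% lower in knockin#1, and 13.3% and 17% in knockin#3. With the row as a block, 6 of the list's higher calls and 0 lower ones held in knockin#1, and 0 of either in knockin#3. The same 9 were higher in both, led by Hexa, a hexosaminidase subunit, at 1.52 in knockin#1 and 1.01 in knockin#3. Mitf, a transcription factor of the lysosomal gene family, differed by 1.10 and 0.88, Gnptg, a subunit of the enzyme that makes the mannose 6-phosphate tag, by 0.93 and 0.85, and Npc2, a cholesterol carrier, by 0.97 and 0.71. Hexa, Gnptg and Npc2 were among the calls that held in knockin#1 (adjusted p at most 0.018), and Mitf was not (adjusted p = 0.0574).

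**Figure D5:**
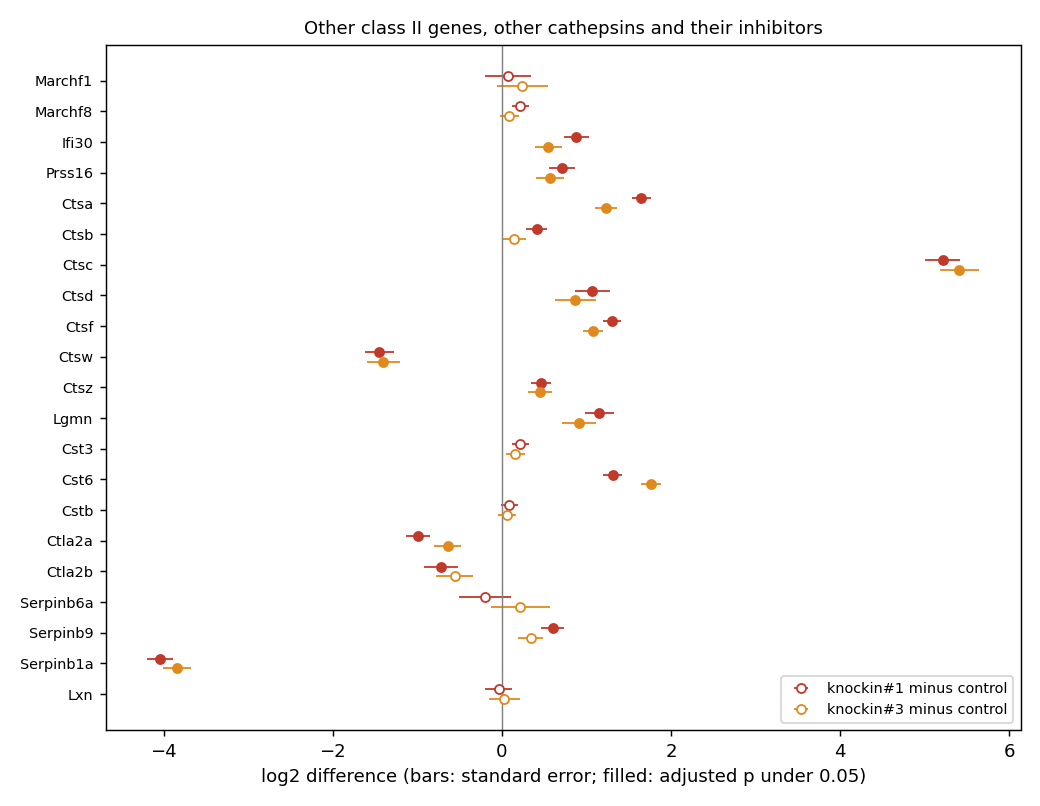
Log2 difference (points, with standard errors as bars) of the tested genes among other class II genes, other cathepsins with legumain, and cathepsin inhibitors, for knockin#1 minus control and knockin#3 minus control. Filled points had an adjusted p under 0.05. The Ctsc control arrays were at background, so its fitted points are not a measured fold, and Serpinb1a lies lowest at -4.04 and -3.84.

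Markers of other cells that carry class II were read beside these results. Of 17 markers of haematopoietic antigen-presenting cells, 8 were tested and limma called 0 in either clone against the control (0 in knockin#1 and 1 in knockin#3 at an unadjusted p under 0.05). Ptprc (CD45), common to blood cells, was well above background on 0 of 3 knockin#1, 0 of 2 knockin#3 and 1 of 3 control arrays, and Cd52, Itgax, Ms4a1, Tyrobp, Laptm5 and Lyz2 on none. The summed signal of the list, in units of the 75th percentile, was 25.8 to 30.9 in knockin#1, 33.5 to 37.4 in knockin#3 and 27.8 to 58.9 in the control. Of 18 thymic epithelial markers, 13 were tested. In both clones 2 were higher (Cldn4 and Pax9) and 4 lower (Cd80, Krt5, Epcam and Trp63), beside 11.3% and 12.2% of all features. The row block ended the calls of Trp63 in both clones (adjusted p = 0.0655 in knockin#1 and 0.0673 in knockin#3) and of Pax9 in knockin#3 (adjusted p = 0.0665). Their summed signal was 348 to 399 in knockin#1, 366 to 410 in knockin#3 and 394 to 510 in the control. Of 10 fibroblast markers, 4 were tested and 2 (Pdgfra and Vim) were lower in both clones, and Col1a1 was well above background on 0 of 3 knockin#1, 0 of 2 knockin#3 and 2 of 3 control arrays. The other tested fibroblast markers, Col1a2 and Col6a2, were not called in either clone. Pdgfrb, Thy1, Dcn and Lum were not well above background on any array. That list had a summed signal of 26.3 to 29.2 in knockin#1, 21.7 to 30.1 in knockin#3 and 53.1 to 78.3 in the control. This sum mostly reflects Vim, with a level of 4.78 in knockin#1, 4.64 in knockin#3 and 5.94 in the control. The part of these epithelial and fibroblast differences in the class II and cathepsin results was not tested.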

How the data were processed

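RNA of TEC71 cells was hybridized to 8 one-colour Agilent SurePrint G3 arrays, per the labels' protocols. The deposited intensity of each spot is a background-subtracted processed signal for which the submitters' processing notes name Agilent Feature Extraction, version 11.5.11. Control spots and 114 to 242 outlier spots per array were left out. Signals were turned into log2 values, averaged per probe and reduced by each array's 75th percentile over probes. Accessions were matched to RefSeq symbols of GRCm38.p6, which named 32994 of 56605 probes, and the brightest probe stood for a gene.

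The 3 groups were fitted with limma 3.58.1 in R 4.3.3 (two-sided, Benjamini-Hochberg over 25352 features, threshold 0.05), so the 2 knockin#3 arrays borrow the spread of the others. The fit was tested on simulated data. Members, gene lists, tests and alternatives were chosen with earlier results of these data known. From each list, up to 4 genes called in both clones in the same direction with the largest smaller difference are named, and the 4 genes nearest to Ctsh. The order of arrays named by replicate number is that of the deposit. The number of arrays limits the precision. Alternatives were normexp correction with offset 50, median and quantile scaling, other filters, the mean of all probes, every probe, a variance trend, array weights, the slide row and each array left out.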

Additional observations from a re-analysis of the deposited data

How the results depend on the processing

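Over up to 18 alternatives, Ctsh (3.66 to 4.57 in knockin#1, 3.68 to 4.56 in knockin#3) and H2-DMb1 (2.39 to 3.78 in knockin#1, 2.38 to 3.88 in knockin#3) were called in all, and so was Cd74 in knockin#1 (0.73 to 1.39). H2-DMa and Ctsl were called in none. Leaving out each control or knockin#1 array in turn, 3 members were called in knockin#1, 3 or 4 in knockin#3 and 0 between the clones. The count of 4 came without control replicate 3 and took in H2-Ab1, which entered the test only through the knock-in groups. Without knockin#3 replicate 1, the Cd74 difference in knockin#3 was 0.51. Over all 25352 features, the main fit called 7896 in knockin#1, 7668 in knockin#3 and 19 between the clones. The slide row as a block gave 4349 calls in knockin#1 and 2068 in knockin#3. With no filter 45616 features were tested, with 5445 calls in knockin#1 and 5103 in knockin#3. Leaving out each array gave 6223 to 7926 calls in knockin#1, 5150 to 7462 in knockin#3 and 8 to 61 between knockin#3 and knockin#1. That last comparison had 46 calls with normexp correction, 7 with no filter, and 62 with a variance trend and robust estimation. The cause of these changes was not tested. The row block uses the only knockin#1 array in the controls' row. H2-Ab1 gave no value with the filter for all 8 arrays. Signals near background limit H2-Aa, H2-Ab1, H2-Eb1, Ciita and Ctss. No paired analysis was possible because the labels give no replicate numbers and the numbers used here only name arrays.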
